A study of Homo sapiens with 4 samples.

Results

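The genes described here are 10 genes of protein folding in the endoplasmic reticulum (ER) and of the unfolded protein response (UPR): HSPA5, HSP90B1, PDIA3, PDIA4, PDIA6, P4HB, CALR, CANX, XBP1 and HERPUD1. They were taken as a list, by symbol and by Ensembl identifier. The list was chosen with earlier results of these data known. All 10 were found among the 63856 genes of the deposited count table, and all 10 were among the 15830 genes that passed the filter on low counts and were tested. RNA-seq was carried out on total RNA, depleted of ribosomal RNA, from MCF10A cells, a non-tumorigenic human breast epithelial line. The study compared wild type cells (WT, 2 libraries) with cells of the same line that stably overexpress heat shock factor 1 from the lentiviral vector pLVX (HSF1-pLVX, 2 libraries), to learn how HSF1 acts in these cells. HSF1-pLVX cells had been selected with puromycin and WT cells had not. No library came from empty-vector cells. HSF1 therefore cannot be told apart from the vector, the selection or a separate culture. The study calls the replicates biological, but the labels do not say that they came from separate cultures, so p-values measure the spread between these libraries, which may be technical.

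The ER is where secreted and membrane proteins fold, are given their disulfide bonds and are checked before they move on. When unfolded proteins accumulate there, the sensors IRE1, PERK and ATF6 start the UPR, which raises the chaperones, slows translation and sends misfolded proteins to degradation in the cytosol. HSF1 is the main transcription factor of a different response, the heat shock response, whose heat shock proteins act as chaperones. In secretory epithelium such as that of the mammary gland, the ER chaperones are among the abundant transcripts.

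Many UPR genes are switched on through a promoter element, the ER stress response element (ERSE), read by ATF6 and XBP1 together with the CCAAT-binding factor NF-Y. Its letters, CCAAT and CCACG with any 9 bases between them, were searched on both strands of the 250 bases before each RefSeq start site (GRCh38.p14). Of 35116 such windows, 26 (0.0740%) held an ERSE. A start-site window was given for 9 of the 10 genes, all but PDIA3, and 6 of these 9 genes held an ERSE: HSPA5, HSP90B1, PDIA6, CALR, CANX and XBP1. The shorter ERSE-II, ATTGG and CCACG with any 1 base between them, occurred in 18 windows (0.0513%), among them that of HERPUD1. The matches are shown as a description of the list. They are not independent of its choice, since genes were listed for their part in ER folding and the UPR. Capitals mark the fixed letters, with 5 bases on each side, and each sequence runs 5′ to 3′ on the strand that carries the match.
HSPA5, chr9:125241391-125241409, minus strand: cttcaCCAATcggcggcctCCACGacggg
HSP90B1, chr12:103930216-103930234, plus strand: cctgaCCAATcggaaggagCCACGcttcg
HSP90B1, chr12:103930321-103930339, minus strand: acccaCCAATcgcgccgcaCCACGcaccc
PDIA6, chr2:10812853-10812871, minus strand: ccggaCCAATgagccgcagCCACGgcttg
CALR, chr19:12938384-12938402, minus strand: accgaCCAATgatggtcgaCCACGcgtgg
CANX, chr5:179698778-179698796, plus strand: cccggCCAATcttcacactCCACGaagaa
XBP1, chr22:28800603-28800621, minus strand: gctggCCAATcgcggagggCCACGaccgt
HERPUD1, chr16:56932025-56932035, plus strand (ERSE-II): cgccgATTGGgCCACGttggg

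The matches of HSPA5, CALR, XBP1 and HERPUD1 lay outside every gene of the count table, before the first counted exon of the member. Both matches of HSP90B1 and that of CANX lay within counted exons of those genes, and that of PDIA6 lay between its exons, before a start site inside the gene. In HSPA5 and XBP1 the element was close to the start site, 66 to 48 and 52 to 34 bases upstream, whereas in CALR it was on the opposite strand, 225 to 207 bases upstream. No ERSE or ERSE-II was found in the windows of PDIA4 and P4HB. The CCAAT box alone (CCAAT), which is part of the ERSE and is present in 32.0% of all windows, was found in all 9 genes. The UPR element TGACGTGG (0.612% of windows) and a heat shock element, made of GAA, then TTC and then a second GAA with any 2 bases before each of the latter (0.441%), were found in none of the 9. A match is a description of the letters in this window, not a site of binding, and a missing match says nothing of a factor.

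**Figure D1:**
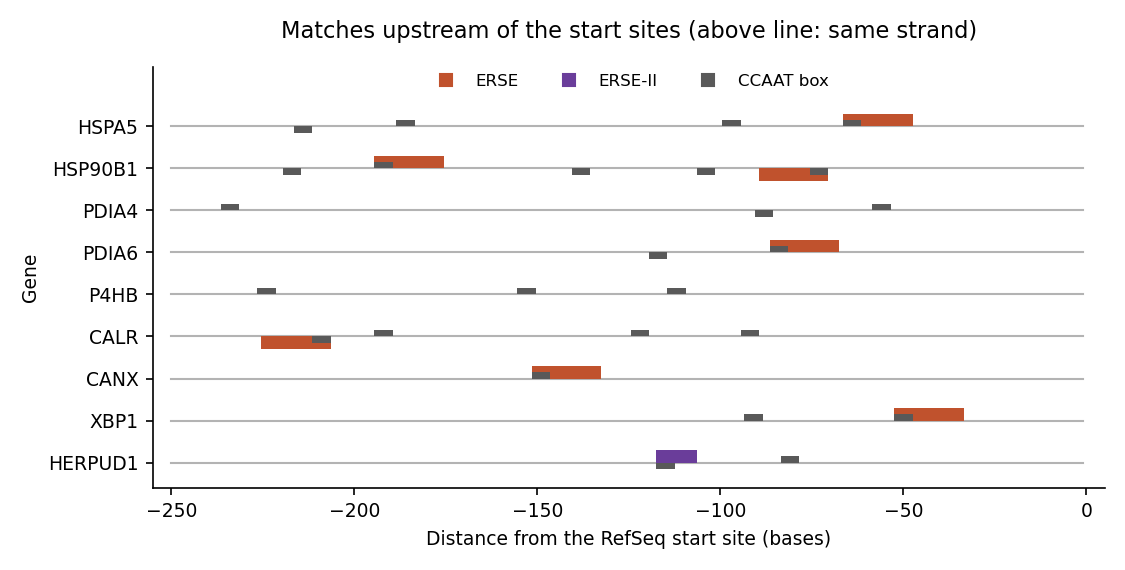
Positions of ERSE, ERSE-II and CCAAT box matches in the 250 bases before the RefSeq start site of 9 genes, in bases from the start site. For genes with several start sites the one whose window holds the match is drawn, or the first. Blocks above a line are on the gene's strand and blocks below it on the opposite strand. The ERSE is nearest the start site in XBP1 and HSPA5, and PDIA4 and P4HB hold CCAAT boxes only.

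The sequence before the start site is given for the genes that changed most in each direction, CALR and HSPA5, which were lower in HSF1-pLVX cells, and XBP1, which was higher. Each runs 5′ to 3′ in the direction of the gene, ends before the gene's first counted exon, and has the fixed letters of the ERSE in capitals, which in CALR read on the opposite strand.
CALR, chr19:12938359-12938577, plus strand: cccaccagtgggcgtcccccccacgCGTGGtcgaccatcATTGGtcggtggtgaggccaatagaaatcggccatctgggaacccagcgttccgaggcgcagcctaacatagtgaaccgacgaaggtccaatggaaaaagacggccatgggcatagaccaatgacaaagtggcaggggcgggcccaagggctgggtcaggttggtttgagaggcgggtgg
HSPA5, chr9:125241344-125241593, minus strand: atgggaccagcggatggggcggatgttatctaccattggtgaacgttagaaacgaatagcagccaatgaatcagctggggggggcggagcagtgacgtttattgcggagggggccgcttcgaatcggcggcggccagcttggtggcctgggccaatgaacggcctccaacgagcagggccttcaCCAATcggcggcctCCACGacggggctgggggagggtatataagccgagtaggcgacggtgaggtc
XBP1, chr22:28800598-28800819, minus strand: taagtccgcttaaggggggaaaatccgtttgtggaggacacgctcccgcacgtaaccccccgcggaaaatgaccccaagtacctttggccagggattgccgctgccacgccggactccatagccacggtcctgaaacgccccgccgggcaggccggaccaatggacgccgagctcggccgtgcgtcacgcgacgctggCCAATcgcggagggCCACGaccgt

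The libraries held between 18688109 and 24184285 counts. HSF1 itself was 200.4 and 189.2 CPM (counts scaled to library size with the TMM method) in the WT libraries and 982.4 and 998.6 CPM in the HSF1-pLVX libraries, a log2 fold change of 2.35 in the labelled direction. All 10 markers of mammary epithelium were detected. Their summed level was 19932 and 19617 CPM in WT and 9051 and 9647 CPM in HSF1-pLVX cells. In HSF1-pLVX cells 3 of these markers were higher and 7 lower, against 32.7% and 33.2% of all tested genes. The 8 fibroblast markers summed to 7.88 and 10.9 CPM in WT and 15.0 and 13.9 CPM in HSF1-pLVX cells. Only 2 of them were tested, and 1 was higher, with a log2 fold change of 5.16, while the other, at 0.19, was not called. The 4 endothelial markers summed to 3.04 and 1.94 CPM in WT against 13.1 and 14.3 CPM. Only 1 of these was tested, and it was higher (log2 fold change 2.92). The 5 immune markers summed to 0.160 and 0.538 CPM in WT and 0.0797 and 0.201 CPM in HSF1-pLVX cells. Among them PTPRC, the general marker of leukocytes, had 0 counts in all 4 libraries. Epithelial markers thus differed between the same groups as the ER genes, and their part in the results was not tested.

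In HSF1-pLVX cells 5 of the 10 ER genes were lower (CALR, HSPA5, HERPUD1, P4HB and HSP90B1), 2 were higher (XBP1 and PDIA4) and 3 did not pass the test (PDIA3, PDIA6 and CANX). The test was edgeR's quasi-likelihood test on the counts, called at a Benjamini-Hochberg adjusted p of 0.05. Of all 15830 genes tested, 65.9% were called, 32.7% as higher and 33.2% as lower, so 7 of 10 is near the background. Among the 1956 genes with a mean of at least 100 CPM, to which most of the list belongs, 80.3% were called, 33.9% as higher and 46.4% as lower. The median log2 fold change of the list was -0.14, against 0.02 for all tested genes and -0.14 for the abundant ones. CALR alone passed the 2-fold limit, which 28.9% of all genes passed, 14.9% upwards and 14% downwards. In bulk RNA a lower level can mean fewer cells with the transcript or less of it per cell, which cannot be told apart. Read counts per gene also show neither protein nor the spliced form of XBP1.

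**Figure D2:**
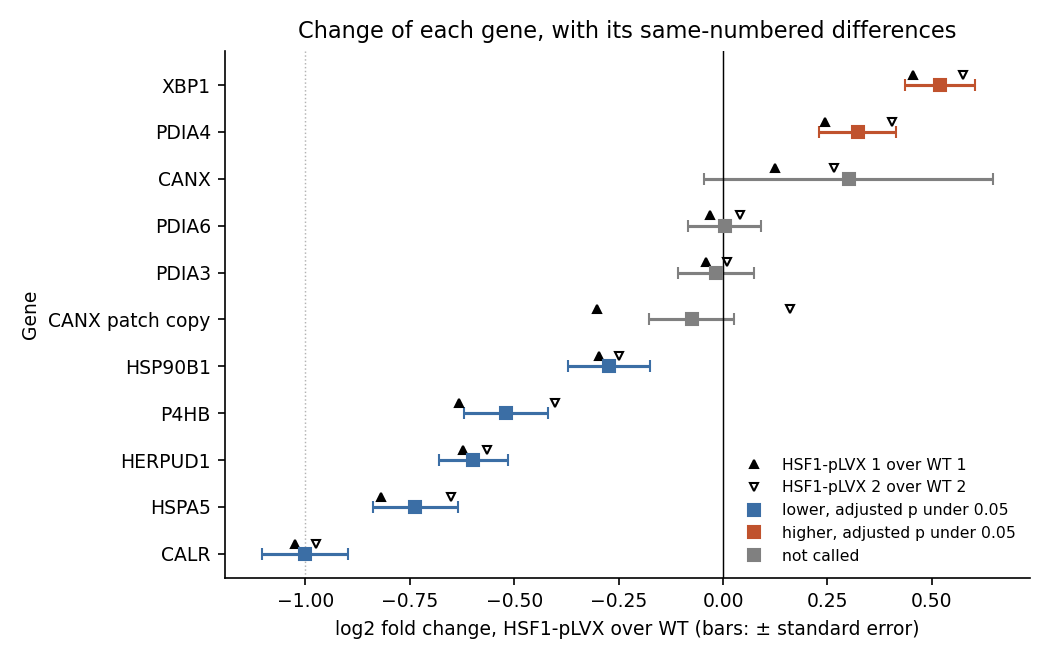
Fitted log2 fold change of each gene, HSF1-pLVX over WT, with its standard error as the bar. Blue marks genes called lower, red higher and grey not called, and triangles give the difference of the same-numbered libraries. The labels do not say whether these share a culture or day. CALR is at the dotted 2-fold line at -1.001, XBP1 is the highest at 0.52, and the wide bar of CANX comes from its few counts.

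HSPA5 and HSP90B1, the HSP70 and HSP90 chaperones of the ER lumen, were both lower in HSF1-pLVX cells, to different degrees. HSPA5 (BiP, ENSG00000044574, chr9:125234853-125241330) binds unfolded chains and also holds the UPR sensors inactive. Its level was 1166 and 1055 CPM in the WT libraries and 661.2 and 671.5 CPM in the HSF1-pLVX libraries. Both HSF1-pLVX libraries were thus well below both WT libraries, and differed from each other far less than the groups did. The mean was 60.0% of WT, with a log2 fold change of -0.74 (SE 0.101, edgeR adjusted p = 1.71e-05). HSP90B1 (GRP94, ENSG00000166598, chr12:103930107-103953645) folds integrins and Toll-like receptors. It measured 980.4 and 967.6 CPM in WT and 798.5 and 813.8 CPM in HSF1-pLVX cells. The groups did not overlap, as in 83.1% of all tested genes, but the difference was small. The mean was 82.8% of WT and the log2 fold change -0.27 (SE 0.0972, edgeR adjusted p = 0.0230). This call was lost with upper quartile scaling (adjusted p = 0.101), with the replicate number as a block (adjusted p = 0.107), and without WT replicate 1, HSF1-pLVX replicate 1 or HSF1-pLVX replicate 2 (adjusted p = 0.0829, 0.0903 and 0.109).

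The pair of lectin chaperones, CALR in the lumen and CANX in the membrane, hold glycoproteins that carry a single terminal glucose. CALR (calreticulin, ENSG00000179218, chr19:12938578-12944489), which also binds calcium, was the most abundant of the 10 genes in WT cells and the most reduced. Its level was 1363 and 1247 CPM in WT and 669.5 and 634.4 CPM in HSF1-pLVX cells. Each HSF1-pLVX library was thus near 50.0% of the WT mean, and the log2 fold change was -1.001 (SE 0.103, edgeR adjusted p = 9.04e-07). CALR kept its call in every alternative that gave a test, but at -1.001 it sits on the 2-fold limit. With library size or upper quartile scaling, with the replicate numbers crossed as a block, without WT replicate 1 and without HSF1-pLVX replicate 2 it was inside that limit, and 0 genes of the list were then beyond it.

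CANX (calnexin, ENSG00000127022, chr5:179678628-179730925) could not be measured with confidence. The count table lists it a second time, as ENSG00000283777 on the patch contig KV575244.1, with the same width in all 129 exon entries. The chromosome 5 entry held only 15 and 14 counts in WT and 23 and 20 in HSF1-pLVX libraries. The patch entry held 1535 and 1286 counts in WT and 1662 and 1537 in HSF1-pLVX libraries. Nearly all reads assigned to calnexin were thus on the patch entry. How reads that map to both entries were counted is not given in the sources used here, so the level of CANX may be too low. The log2 fold change was 0.30 (SE 0.346, edgeR adjusted p = 0.461) for the chromosome 5 entry and -0.07 (SE 0.102, adjusted p = 0.536) for the patch entry. With both summed it was -0.07 (adjusted p = 0.561). In the patch entry the libraries of the groups overlapped, at 81.8 and 69.2 CPM in WT and 66.2 and 77.4 CPM in HSF1-pLVX cells.

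**Figure D3:**
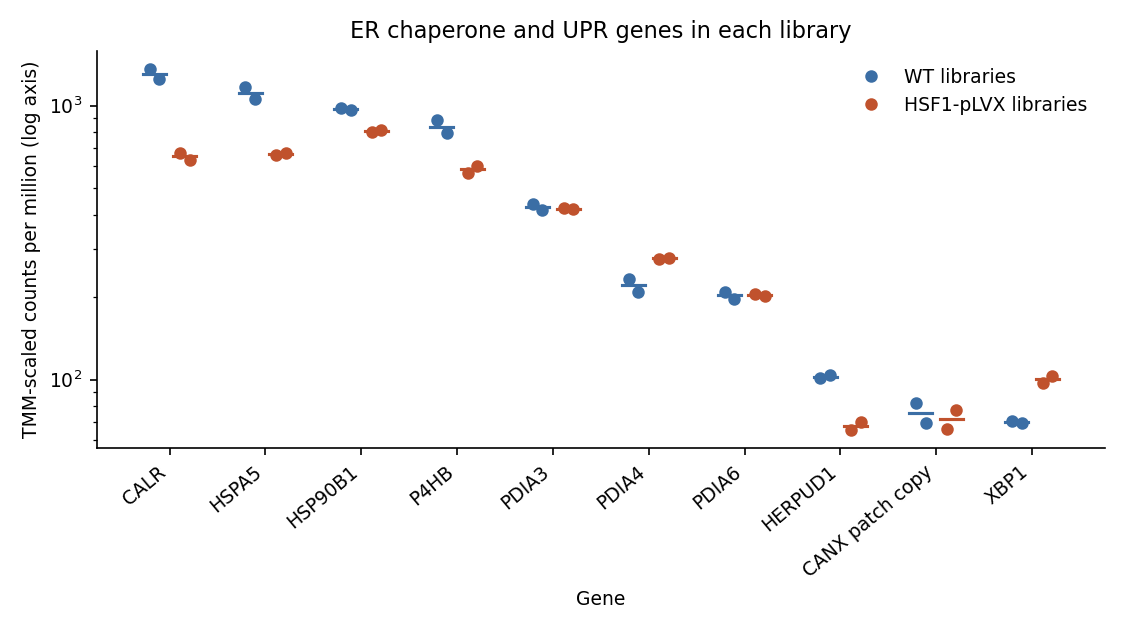
Level of each gene in each of the 4 libraries, in CPM on a log axis. Points are libraries, blue for WT and red for HSF1-pLVX, and short lines are group means (n = 2). CANX is drawn from its patch entry. The groups are far apart for CALR and HSPA5 and overlap for PDIA3, PDIA6 and CANX.

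The protein disulfide isomerases, which form and rearrange disulfide bonds, did not move one way: P4HB was lower, PDIA4 higher, and PDIA3 and PDIA6 did not pass the test. P4HB (PDI, ENSG00000185624, chr17:81843159-81860694) is the archetype of the family and also a subunit of the prolyl 4-hydroxylase of collagen. It measured 883.0 and 793.2 CPM in WT and 569.7 and 599.7 CPM in HSF1-pLVX cells. The lower WT library was still clearly above both HSF1-pLVX libraries. The mean was 69.8% of WT and the log2 fold change -0.52 (SE 0.101, edgeR adjusted p = 3.89e-04).

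PDIA4 (ERp72, ENSG00000155660, chr7:149003062-149028641) measured 233.3 and 209.4 CPM in WT and 276.3 and 277.2 CPM in HSF1-pLVX cells. The HSF1-pLVX libraries agreed closely and both were above the WT libraries, which differed more from each other. The mean was 125% of WT and the log2 fold change 0.32 (SE 0.0921, edgeR adjusted p = 0.00670). The call was lost without WT replicate 2 (adjusted p = 0.0892) and without HSF1-pLVX replicate 2 (adjusted p = 0.0939).

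PDIA3 (ERp57, ENSG00000167004, chr15:43746392-43773279) works with the lectin chaperones on glycoproteins. It measured 435.5 and 415.9 CPM in WT and 423.1 and 418.3 CPM in HSF1-pLVX cells, so that the HSF1-pLVX libraries lay between the WT libraries. Its log2 fold change was -0.02 (SE 0.0916, edgeR adjusted p = 0.880), with a sign that turned under other scalings. PDIA6 (P5, ENSG00000143870, chr2:10783391-10837977), which can act on a disulfide of the sensor IRE1, measured 209.5 and 196.1 CPM in WT and 204.9 and 201.6 CPM in HSF1-pLVX cells. Here too the HSF1-pLVX libraries lay between the WT libraries, and the log2 fold change was 0.00 (SE 0.0879, edgeR adjusted p = 0.975).

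XBP1 and HERPUD1, both known targets of the UPR, moved in opposite directions. XBP1 (ENSG00000100219, chr22:28794555-28800597) encodes the transcription factor whose mRNA is spliced by IRE1. It measured 70.4 and 69.2 CPM in WT and 96.7 and 103.4 CPM in HSF1-pLVX cells. Replicates agreed closely in both groups, and the groups were well apart. The mean was 143% of WT and the log2 fold change 0.52 (SE 0.0837, edgeR adjusted p = 7.85e-05). HERPUD1 (Herp, ENSG00000051108, chr16:56932048-56944863) is a membrane protein of the HRD1 complex of ER-associated degradation. It measured 101.3 and 103.6 CPM in WT and 65.6 and 69.9 CPM in HSF1-pLVX cells. Both HSF1-pLVX libraries were thus well below both WT libraries, which agreed closely. The mean was 66.1% of WT and the log2 fold change -0.60 (SE 0.0835, edgeR adjusted p = 2.01e-05).

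To compare genes with each other, levels were divided by gene length (RPKM, mean ± SD, n = 2). The length was that given with the counts, which need not be that of the main transcript, and the order depends on it. In WT cells CALR was highest at 481 ± 30.1 RPKM, followed by HSPA5 at 284 ± 20.0 and HSP90B1 at 207 ± 1.92. CALR, HSPA5 and HSP90B1 were thus above the disulfide isomerases. Of the isomerases, P4HB reached 158 ± 11.98 RPKM, PDIA3 100.4 ± 3.27, PDIA4 67.5 ± 5.16 and PDIA6 49.5 ± 2.30. XBP1 at 23.1 ± 0.283 RPKM and HERPUD1 at 19.9 ± 0.320 were the lowest apart from CANX, whose patch entry gave 12.1 ± 1.42. Neighbours in this order did not overlap between their libraries. By CPM, not divided by length, HERPUD1 was above XBP1 in WT cells, with means of 102.4 and 69.8.

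In HSF1-pLVX cells the order was the same with 1 exception, and the range was narrower. CALR was still highest at 240.2 ± 9.13 RPKM. HSP90B1 at 172 ± 2.31 and HSPA5 at 171 ± 1.87 RPKM were now level, their libraries overlapping, where HSPA5 had been above HSP90B1 in WT cells. P4HB followed at 110.3 ± 4.004, PDIA3 at 99.2 ± 0.785, PDIA4 at 84.5 ± 0.192 and PDIA6 at 49.6 ± 0.567 RPKM. XBP1 rose to 33.0 ± 1.56 RPKM and HERPUD1 fell to 13.1 ± 0.597. These 2 genes, close per length in WT cells, were now apart. Summed over the 10 genes, 5443 and 5058 CPM in WT became 3766 and 3791 CPM in HSF1-pLVX cells, or 72.0% of WT. The 4 most abundant genes per length were thus the ones that fell, together with HERPUD1. Of these HSP90B1 fell least, and its call was lost in several alternatives. Among all tested genes of at least 100 CPM, 46.4% were lower.

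**Figure D4:**
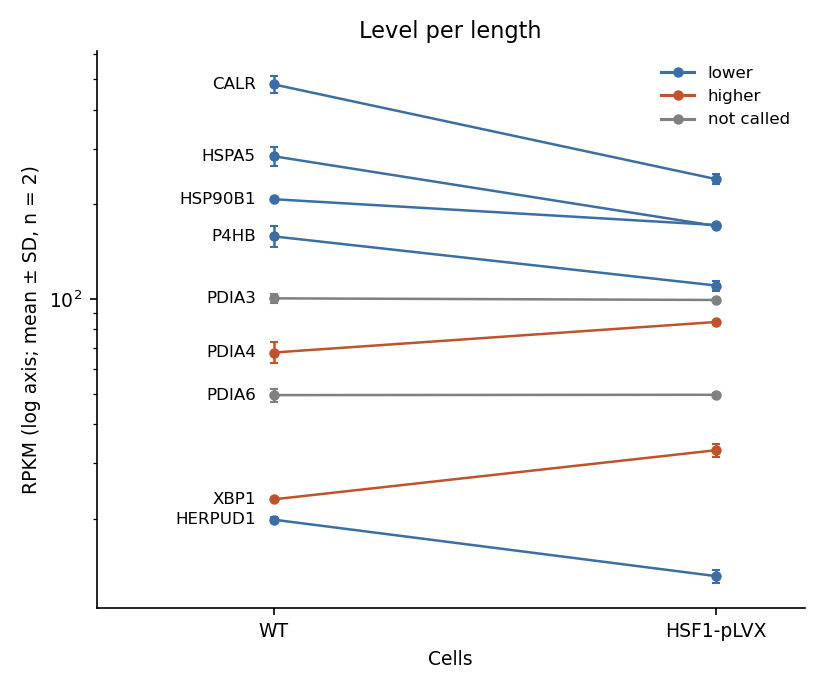
Mean level per length (RPKM, log axis) of 9 genes in WT and HSF1-pLVX cells, with the SD over 2 libraries as the bar. Blue lines are genes called lower, red higher and grey not called. CANX is left out because its reads are split between entries. HSPA5 falls from 284 to 171 RPKM and meets HSP90B1, while XBP1 and HERPUD1 move apart.

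Related and overlapping genes could share reads with the list. PDIA3P1, a processed copy of PDIA3 on chromosome 1, held 589 and 530 counts in WT and 711 and 579 in HSF1-pLVX libraries, and HSP90B2P held 33 and 31 against 36 and 25. The copies HSPA5P1, HSP90B3P, PDIA3P2, XBP1P1 and CALR4P held at most 7 counts in any library. UQCC6, on the strand opposite to HSP90B1 and overlapping its exons, held 92 and 124 counts in WT and 141 and 111 in HSF1-pLVX libraries, against at least 16168 for HSP90B1. The largest related source was thus PDIA3P1, small beside the at least 7727 counts of PDIA3. Whether the counting used strand is not given in the sources used here.

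The rest of the pathway was read from 8 lists by role, which without the 10 genes held 113 genes, 104 of them tested. Among these 104 genes HSF1-pLVX cells had 31 at a higher and 44 at a lower level, with a median log2 fold change of -0.10. The share called was thus again near the 65.9% of all genes, and both directions were present.

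The sensors differed among themselves. EIF2AK3, the kinase PERK, which slows translation, measured 52.5 and 59.8 CPM in WT and 19 and 15.96 CPM in HSF1-pLVX cells, a log2 fold change of -1.68 (SE 0.108). ATF6, cleaved in the Golgi to a transcription factor, fell less, by 0.49 on the log2 scale. ERN1, which encodes IRE1, was higher, at 14.6 and 15.4 CPM in WT and 22.5 and 25.1 CPM in HSF1-pLVX cells (log2 fold change 0.66). In all, of 5 tested genes in the list of sensors and their activating proteases, 1 was higher, 2 were lower and 2 did not pass. Over all tested genes 32.7% were higher and 33.2% lower. The transcript of PERK was thus the one that fell by more than 2-fold, while that of IRE1 rose.

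Of the 13 other tested transcription factors and targets of the PERK branch, 6 were higher and 4 were lower. The background over all tested genes was 32.7% higher and 33.2% lower. ATF4, the factor translated when PERK is active, measured 232 and 242 CPM in WT and 487 and 570 CPM in HSF1-pLVX cells (log2 fold change 1.16). TRIB3, a pseudokinase, was also higher, by 1.21. By contrast PPP1R15A (GADD34), which ends the PERK response, and ATF3, a stress-induced factor, had log2 fold changes of -1.48 and -2.04. ATF3 differed widely between WT libraries, at 61.3 and 114.7 CPM, but both were above the 20.6 and 22.2 CPM of HSF1-pLVX libraries. DDIT3 (CHOP), the factor of ER stress-induced cell death, measured 9.91 and 9.10 CPM in WT and 9.56 and 8.004 CPM in HSF1-pLVX cells and did not pass (log2 fold change -0.11, edgeR adjusted p = 0.533). ATF4 and TRIB3 were thus up while ATF3 and PPP1R15A were down, with DDIT3 not called.

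Co-chaperones of BiP and other lumenal folding factors counted 9 lower and 2 higher genes among 15 tested, with a median log2 fold change of -0.35, where 33.2% of all tested genes were lower. DNAJB9 (ERdj4), a J-protein that returns BiP to IRE1, measured 35.2 and 41.7 CPM in WT and 16.2 and 19.4 CPM in HSF1-pLVX cells (log2 fold change -1.12). DNAJC3 (p58IPK), another J-protein of BiP, had a log2 fold change of -0.88 and SDF2L1, which works with DNAJB11, of -0.76. The highest of this list were CNPY3, a chaperone of Toll-like receptors, at 0.36 and SEC63, the J-protein of the translocon, at 0.22. The call of SEC63 was lost in 7 alternatives and that of CNPY3 without HSF1-pLVX replicate 2. HYOU1, a nucleotide exchange factor of BiP, could not be tested, since its own entry held at most 1 count per library. Its patch entry held 257 counts in WT replicate 1 and 19, 14 and 11 in the other libraries, so that this value comes from a single library.

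ER-associated degradation, the list that holds HERPUD1, had the lowest median of the 8 pathway lists. Without HERPUD1, 14 of 22 tested genes were lower and 3 higher, with a median log2 fold change of -0.39. Of all tested genes 33.2% were lower and 32.7% higher, and of those with at least 100 CPM 46.4% were lower. UBE2J1, the membrane-bound ubiquitin-conjugating enzyme of this pathway, measured 152 and 163 CPM in WT and 53.1 and 48.6 CPM in HSF1-pLVX cells (log2 fold change -1.63). NPLOC4, a cofactor of the segregase VCP, had a log2 fold change of -0.92 and SEL1L, the partner of the ligase HRD1, of -0.83. The gene of HRD1 itself, SYVN1, did not pass (104.5 and 111.1 CPM in WT, 95.6 and 98.7 CPM in HSF1-pLVX cells, edgeR adjusted p = 0.130). EDEM1, a lectin that directs glycoproteins to degradation and a known XBP1 target, was higher by 0.38, and UBE2G2, a cytosolic conjugating enzyme, by 0.48. Genes of the same membrane complex thus ranged from a clear fall to no call.

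Further disulfide isomerases and oxidases, like the 4 on the list, moved both ways, with 8 higher and 4 lower of 18 tested. The share called, 66.7%, was near the 65.9% of all tested genes, of which 32.7% were higher and 33.2% lower. QSOX1, a sulfhydryl oxidase of the Golgi and extracellular space, measured 665 and 656 CPM in WT and 178 and 167 CPM in HSF1-pLVX cells (log2 fold change -1.94). Its paralog QSOX2 moved the other way, from 23.4 and 20.9 to 44.01 and 43.7 CPM (0.98). TXNDC11 fell by 0.67 and PDIA5 rose by 1.01 on the log2 scale. ERO1A, the oxidase that recharges PDI, did not pass (log2 fold change -0.06, edgeR adjusted p = 0.607) and its sign turned under library size and upper quartile scaling.

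The lectin cycle and glycan trimming had 4 genes higher and 3 lower of 9 tested, where 32.7% of all tested genes were higher and 33.2% lower. LMAN1 (ERGIC-53), a cargo receptor for glycoproteins, measured 94.5 and 98.5 CPM in WT and 226.3 and 205.1 CPM in HSF1-pLVX cells (log2 fold change 1.16). Its partner MCFD2 fell by 0.28 on the same scale, a call lost with upper quartile scaling and without HSF1-pLVX replicate 2. UGGT2, which re-glucosylates unfolded glycoproteins for CALR and CANX, rose by 0.72, and MAN1B1, a mannosidase that marks them for degradation, fell by 0.52. Of this list, with the described genes included, CALR fell most.

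Among 7 prolyl isomerases of the ER, 4 were higher and 2 lower. FKBP10, a chaperone of collagen, measured 46.8 and 43.0 CPM in WT and 103.8 and 117.9 CPM in HSF1-pLVX cells (log2 fold change 1.30). PPIB (cyclophilin B), which binds several ER chaperones, was higher by 0.32 and FKBP11 by 0.41, both lost without HSF1-pLVX replicate 2. FKBP2 and FKBP9 had log2 fold changes of -0.53 and -0.47. Of 15 genes of the KDEL receptors and translocon, 3 were higher and 6 lower. For this list and the prolyl isomerases the background was 32.7% higher and 33.2% lower among all tested genes. KDELR3, one of the receptors that return lumenal chaperones such as BiP and calreticulin to the ER, measured 39.3 and 36.7 CPM in WT and 7.13 and 5.64 CPM in HSF1-pLVX cells (log2 fold change -2.56). SSR3 fell by 0.46, while SSR1 and SSR4, subunits of the same translocon-associated complex, rose by 0.35 and 0.31. The call of SSR4 was lost without WT replicate 2 and without HSF1-pLVX replicate 2.

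**Figure D5:**
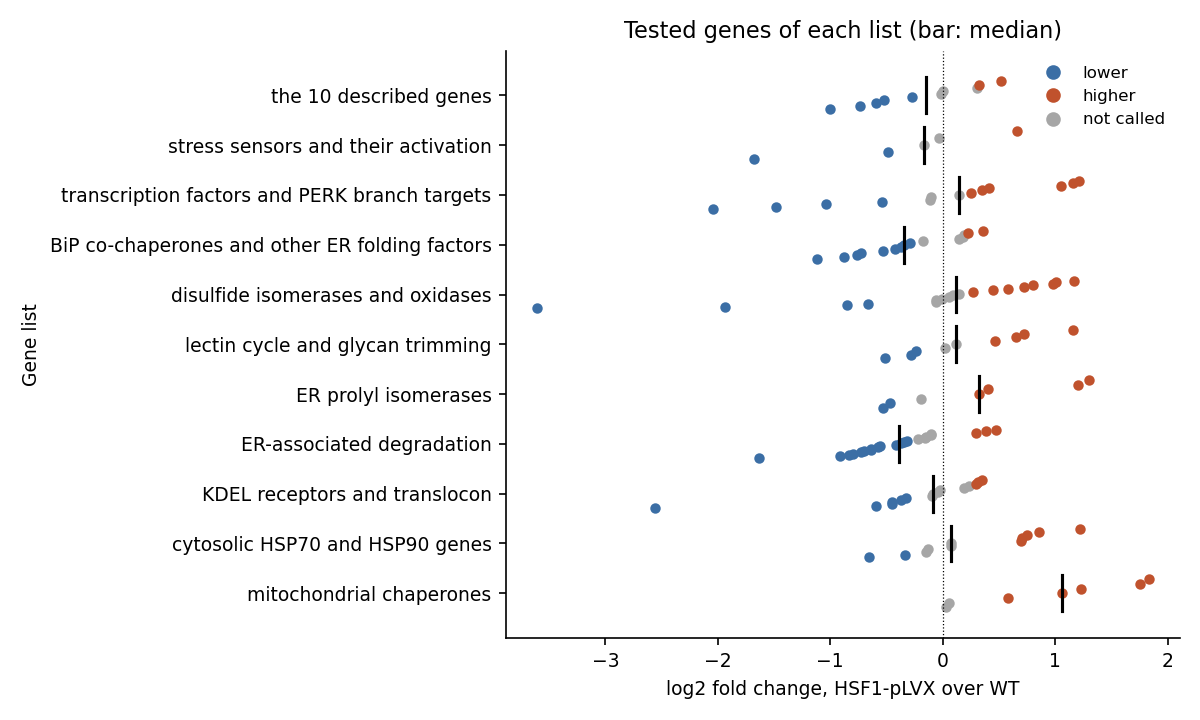
Fitted log2 fold change, HSF1-pLVX over WT, of each tested gene of the 10 described genes, of 8 ER pathway lists without those genes and of 2 lists of chaperones of other compartments. Blue is lower, red higher and grey not called, and the black bar is the list's median. The medians of the co-chaperone and ER-associated degradation lists are at -0.35 and -0.39, and that of the mitochondrial chaperones is at 1.06.

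Chaperones of other compartments were read alongside. Of 11 tested cytosolic HSP70 and HSP90 genes and partners, 5 were higher and 2 lower, with a median log2 fold change of 0.07. HSPA1A, HSPA1B and HSPA1L were listed at 0 counts. Their copies found on other contigs held at most 6 counts in any library. These HSP70 genes were thus in effect not measured, and the median and summed level of the cytosolic list say nothing of them. Of 7 tested mitochondrial chaperone genes, 5 were higher and 2 were not called, with a median of 1.06. Both counts stand against 65.9% called and 32.7% higher among all tested genes, so the share called was near the background in both lists. By direction the mitochondrial list differed, with 0 genes lower, against 33.2% of all tested genes. In it 4 of 7 genes were higher by 2-fold, against 14.9% of all tested genes. Summed levels were 103% of WT for the cytosolic and 244% for the mitochondrial list, against 72.0% for the 10 ER genes. HSPA9, the mitochondrial HSP70, had a log2 fold change of 1.06 and TRAP1, the mitochondrial HSP90, of 1.76, where HSPA5 and HSP90B1, their counterparts in the ER, had -0.74 and -0.27. The difference between the lists was not tested.

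Genes that share the ERSE with the list were found in both directions. Of 25 genes with an ERSE before a start site, 16 were tested, and 4 were higher, 7 lower and 5 not called, with a median log2 fold change of -0.06. Leaving out the 6 genes of the list, 3 were higher, 4 lower and 3 not called. These shares are near the 65.9% called, 32.7% higher and 33.2% lower of all tested genes, and nothing is read from them. Among the genes printed above, the element was present in genes that fell (HSPA5, HSP90B1 and CALR), in XBP1, which rose, and in PDIA6, which did not pass. PDIA4, which rose, and P4HB, which fell, had none in these windows.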

How the data were processed

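RNA-seq was carried out on 4 libraries of MCF10A cells, 2 of WT and 2 of HSF1-pLVX cells, grouped by their titles. The members and gene lists were chosen with earlier results of these data known.

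The authors sequenced paired-end reads of 76 bases, aligned them to hg38 with HISAT2 2.0.5, processed them with SAMtools 1.13 and counted them per gene of GENCODE release 26 with featureCounts 1.6.5. The deposited counts of reads per gene were used as given. A second deposited table holds log2-like values normalized by the authors with DESeq2 1.32.0, used only for alternative values. Strand and multi-mapping settings are not given in the sources used here, and 5637 of the 63856 genes lie on contigs outside the main chromosomes. Symbols came from GENCODE release 44.

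edgeR 4.0.16 (R 4.3.3) was run on the counts (TMM, filterByExpr defaults, quasi-likelihood test, no block) with Benjamini-Hochberg adjustment over 15830 genes, called at 0.05, with a log2 fold change beyond 1 for 2-fold calls. Standard errors (SE) come from the fitted coefficient. CPM and RPKM (CPM per kb of the table's gene length) use the TMM factors, 0.9635 to 1.04. edgeR's common coefficient of biological variation was 0.0738. With 2 libraries against 2, an exact permutation test cannot go below p = 0.33, so single-gene p-values rest on spread shared across genes. Replicates differed by more than sampling noise (chi-square per degree of freedom 6.62 for WT and 8.04 for HSF1-pLVX). On simulated counts of 15379 to 15434 genes with 200 changed 2-fold in each of 3 draws, 85.1% were recovered, and 5.13% of calls were false. The simulation used a common spread for all genes and changed few of them, whereas 65.9% of tested genes were called here. These rates need not hold for the real data.

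All 10 members were named. Also named were the sensors, ATF4, DDIT3, DNAJB9, DNAJC3, HYOU1, SDF2L1, SEL1L, SYVN1, EDEM1, ERO1A and PPIB, and per pathway list the 2 genes with the largest rise and the 2 with the largest fall, if called, with at least 10 CPM and the same direction in both replicate numbers. HSF1 was the check. Others in the text were chosen after their values were seen. Alternatives covered scaling, the filter, DESeq2 1.42.0, limma 3.58.1 (voom), the replicate block, each library left out, a stricter adjusted p of 0.01, the study's ratio rule, and, added after seeing the data, both entries of a gene summed and the replicate numbers crossed. Promoter sequences are RefSeq's for GRCh38.p14. Western blots and other cell lines were not analysed here.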

Additional observations from a re-analysis of the deposited data

How the results depend on the processing

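HSPA5, P4HB, CALR, XBP1 and HERPUD1 kept direction and call in all tested alternatives. HSP90B1 was no longer called with upper quartile scaling (log2 fold change -0.19) or with the replicate number as a block (-0.27). The difference of the deposited normalized values was -0.30, and with single libraries left out the fold change ran from -0.30 to -0.25. PDIA4 ran from 0.23 to 0.42 with libraries left out. The sign of genes that did not pass was not stable. PDIA3 was 0.0436 with library size and 0.0685 with upper quartile scaling, and -0.0674 to 0.0310 with libraries left out. PDIA6 was -0.00933 with DESeq2 size factors in edgeR and with DESeq2, -0.00188 without the filter, -0.0239 in the deposited values and -0.0606 to 0.0661 with libraries left out. CANX was -0.0701 with both entries summed and 0.16 in the deposited values. Its patch entry was 0.0114 with upper quartile scaling and -0.21 to 0.0651 with libraries left out. DDIT3 ran from -0.24 to 0.0184 with libraries left out, and ERO1A was 0.00151 with library size, 0.0275 with upper quartile scaling and -0.15 to 0.0384 with libraries left out. Members called higher numbered 1 to 2 with libraries left out. Members lower by 2-fold numbered 0 with library size, with upper quartile scaling and by the study's ratio rule, and 0 to 1 with libraries left out. For 37 pathway genes, 426 of 444 alternative values kept direction and call. For counts over gene lists, 536 of 560 stayed within 1.5 times. The causes were not tested. Scaling moved the median of all genes by at most 0.0852 (log2). The labels do not say whether same-numbered libraries share a culture or day. Their deviations correlated at -0.0147 over all tested genes and at -0.114 over the 9672 genes of at least 8 CPM. These correlations do not settle whether the libraries were paired. With the numbers crossed as a block, chosen after seeing the data, 5429 genes were higher and 5487 lower, and of the members 2 were higher, 5 lower and 0 lower by 2-fold. The block on the numbers as labelled left HSP90B1 uncalled and changed no other call among the members. It also left SEC63 uncalled (adjusted p = 0.0526), and its estimated prior degrees of freedom were infinite.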
